A study of Mus musculus with 8 samples.

Results

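Gene expression was compared between hair follicle stem cells in which Ctnnb1, which encodes β-catenin, was floxed on 1 or on both chromosomes. Both mice carried K15CrePGR, a Cre recombinase fused to a progesterone receptor domain and driven by the keratin 15 promoter, and a Rosa-YFP reporter behind a floxed stop. The control, labelled Het, was Ctnnb1 +/fl, so it too had 1 floxed copy. The cells labelled cKO were Ctnnb1 fl/fl. Both came from back skin of C57BL6/129Sv females of day 99 and were sorted by flow cytometry, with 1 RNA sequencing library each. The growth protocol in the labels names telogen, the resting phase of the follicle, whereas the design text places the cells at the onset of anagen, the growth phase. The labels state neither the inducer, nor the gates of the sort, nor whether animals were pooled. Of the 8 samples in the series, these 2 libraries form the comparison, and a separate pair of libraries from Axin2-LacZ mice is set beside it at the end.

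The values were FPKM, fragments scaled to transcript length and library total, with 1 value per gene and library. Of 28792 symbols, 13014 reached 1 FPKM in either library. After removal of 2274 names of small RNAs, clones, Gm and Rik models, and of 4 further genes with a listed 0 in 1 library, 10736 genes were compared. At the edge of the minimum, Mctp2 (0.994 FPKM in cKO and 1.00 in Het) was kept and Man1c1 (0.869 and 0.998) was not. A difference is the log2 of (FPKM + 1) in the cKO-labelled library minus that in the Het-labelled library, and 2-fold means a difference of at least 1 or at most -1. Read counts cannot be had from FPKM, and the depth is unknown. With 1 library per group there is no replicate error and no test, and every difference describes these libraries only.

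The bulge is the part of the hair follicle that holds its stem cells, which rest for most of the hair cycle and divide at the start of each growth phase. β-catenin links cadherins to the actin cytoskeleton at adherens junctions. It is also the transcriptional partner of TCF/LEF factors: when a Wnt ligand binds its Frizzled and LRP receptors, the destruction complex of Axin, APC and GSK3 stops degrading β-catenin, which enters the nucleus and activates Wnt target genes. In the follicle this pathway is known for the activation of the hair germ at the start of anagen.

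Ctnnb1 itself, the targeted gene (ENSMUSG00000006932, mm9 chr9:120833572-121186315, in an interval shared by 4 genes) was at 370 FPKM in cKO and at 251 in Het, which is 0.55 on the log2 scale. This runs opposite to a loss of the transcript. A gene-level value does not resolve the floxed part of the gene, so it does not check the genotype, and the libraries are named by their labels throughout. Both libraries carried markers of bulge cells, most of them at high level. Krt15, the keratin whose promoter drives the Cre, stood at 7528 FPKM in cKO and 6208 in Het. Cd34, the surface antigen used to isolate bulge cells, stood at 752 and 645 FPKM, the integrin gene Itga6 at 142 and 123, and the basal keratin gene Krt5 at 6278 and 5272. Lhx2 stood at 285 FPKM in cKO and 220 in Het, Sox9 at 74.9 and 73.3, and Tcf7l1 at 14.6 and 10.9. The bulge markers Lgr5 (108 and 183 FPKM) and Nfatc1 (42.8 and 62.0) were lower in cKO.

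Markers of other cell types were mostly absent. Of 12 leukocyte markers 2 reached 1 FPKM, and their list summed to 9.38 FPKM in cKO and 6.73 in Het; Ptprc, the pan-leukocyte antigen CD45, was at 0.0201 and 0.0196 FPKM. Of 14 fibroblast and dermal papilla markers 4 reached 1 FPKM, with summed levels of 50.4 in cKO and 26.5 in Het, with a median difference of 0.73 over the 4, while Pdgfra, Dpt, Lum, Dcn and Col3a1 were all below 1 FPKM in both. The summed levels were 43.8 and 41.6 FPKM for 9 endothelial and mural markers, 45.5 and 47.4 for 8 melanocyte markers, 9.33 and 12.4 for 9 Merkel cell and nerve markers, and 3.89 and 5.06 for 8 muscle, adipocyte and red cell markers. Of the 9 Merkel cell and nerve markers 4 reached 1 FPKM, with a median difference of -0.30. The lowest of these was Ngfr at 0.133 FPKM in cKO and 2.21 in Het (-1.50). In a sorted population a smaller number of cells of a type and less RNA per cell cannot be told apart.

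The 2 libraries were close for most genes. The median difference over the 10736 genes was 0.056 and the central 95% lay between -0.69 and 0.65. By 2-fold or more, 91 genes (0.848%) stood higher in cKO and 131 (1.22%) lower, 2.07% in either direction. The excess of lower genes did not hold in every setting: with a pseudocount of 5 the counts were 41 higher and 36 lower, and with a minimum of 5 FPKM they were 70 and 68. The lower genes were mostly low: the median of their higher library was 5.54 FPKM, and 63 of 131 stayed under 5 FPKM in both libraries. The higher genes had a median of 22.2 FPKM, and 21 of 91 stayed under 5 FPKM. Among the 699 genes whose higher library reached 100 FPKM, 21 were higher and 5 lower, with a median difference of 0.17. Among the 1442 genes between 2 and 5 FPKM, 18 were higher and 45 lower. Of the genes past 2-fold, 29 of the higher and 52 of the lower were on one of the gene lists described here.

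**Figure D1:**
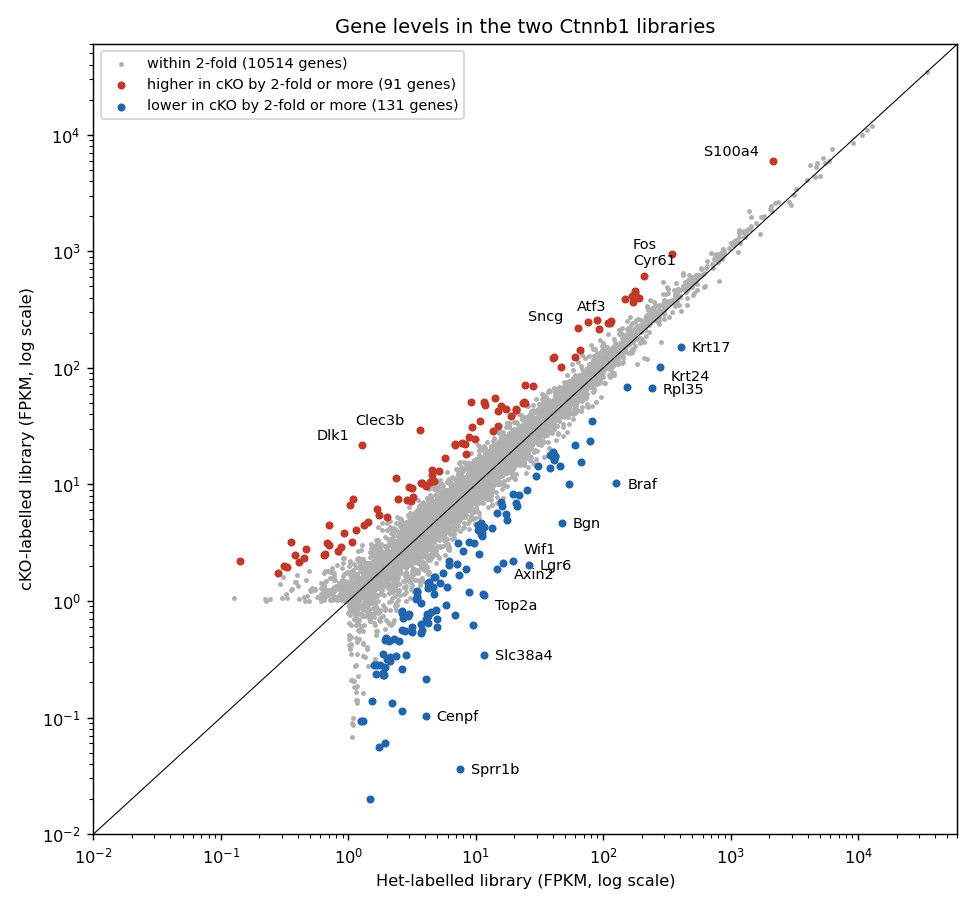
Level of 10736 genes in the Het-labelled library (x axis, FPKM, log scale) and the cKO-labelled library (y axis, FPKM, log scale), 1 point per gene, with the line of equal level. The 131 genes lower by 2-fold or more (blue) lie mostly at low levels, and the 91 higher genes (red) reach S100a4 at 5913 FPKM in cKO.

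The first question of the comparison is whether the Wnt pathway reads differently in the cKO-labelled cells. Of 26 Wnt target and feedback genes, 16 were measured and 15 of these were lower in cKO, against 38.3% of all genes; 3 of the 16 passed 2-fold downward and none upward. Axin2, the feedback scaffold of the destruction complex, stood at 2.12 FPKM in cKO and 16.3 in Het (-2.47). Wif1, a secreted inhibitor that binds Wnt ligands, stood at 2.20 and 19.6 FPKM (-2.69). Cd44, a hyaluronan receptor, stood at 17.4 and 41.9 FPKM (-1.22). These 3 genes were low in cKO against the level in Het, and the other members lay within 2-fold.

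Within that range were Tcf7, a TCF factor that is itself a Wnt target (2.13 in cKO and 4.85 FPKM in Het, -0.91), Sox4 (2.80 and 6.04 FPKM, -0.89), the cyclin D1 gene Ccnd1 (23.8 and 42.2 FPKM, -0.80), the activin antagonist gene Fst (56.5 and 95.9 FPKM, -0.75), Lgr5 (108 and 183 FPKM, -0.75) and Nkd1, an inhibitor of Dishevelled (1.49 and 2.78 FPKM, -0.60). The ubiquitin ligase genes Rnf43 and Znrf3, which remove Wnt receptors from the cell surface, were each at -0.30, and Apcdd1 was at -0.33. Bmp4 (-0.12), Porcn (-0.066) and Tnfrsf19 (-0.064) are counted among the 15 lower genes but were near equal in the 2 libraries. Myc was the 1 measured target that was not lower, at 31.4 FPKM in cKO and 27.9 in Het. The median of the 16 was -0.68, beside 0.056 over all genes. It was -0.31 for the 8 members alone in their interval, a group without Axin2, Cd44, Lgr5 and Ccnd1, and -0.46 when the highest row of a symbol was used in place of the sum.

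The parts of the pathway above the target genes differed less. Of 17 measured genes of the destruction complex and Dishevelled none passed 2-fold, and their differences lay between -0.16 and 0.31. Axin2 (-2.47), also a part of that complex, was counted with the target genes and is not among the 17. Of 20 TCF/LEF factors and cofactors none passed 2-fold. Tcf7l1, which encodes TCF3, stood at 14.6 FPKM in cKO and 10.9 in Het, and Tcf7l2, which encodes TCF4, at 16.2 and 13. Lef1 fell under the minimum and is not among the 20, at 0.0910 FPKM in cKO and 0.932 in Het (-0.82). Of 8 measured Wnt ligand and secretion genes none passed 2-fold, with Wnt7b at -0.74 and Wnt5b at 0.80 as the extremes. Of 17 receptors, 1 passed: Lgr6, an R-spondin receptor of the upper follicle, stood at 2.04 FPKM in cKO and 26.2 in Het (-3.16). The other 11 measured markers of the upper follicle and junctional zone lay within 2-fold, among them Krt79 (18.5 and 21.7 FPKM), Defb6 (59.2 and 64.9) and Lrig1 (37.2 and 30.7). Of 5 measured secreted inhibitors 1 passed 2-fold, Wif1 (-2.69), which is also counted with the target genes above. Sostdc1, which blocks both Wnt and BMP signals, stood at 120 and 219 FPKM (-0.86). Sfrp1 (252 and 264 FPKM) and Dkk3 (247 and 215) were near equal in the 2 libraries.

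Junction genes, the other site of β-catenin, were near equal. None of 14 measured adherens junction genes and none of 12 desmosome genes passed 2-fold. The γ-catenin gene Jup, whose product can take the place of β-catenin at junctions, stood at 203 FPKM in cKO and 175 in Het (0.21). The E-cadherin gene Cdh1 stood at 101 and 117 FPKM (-0.21), and the α-catenin gene Ctnna1 at 114 and 99.7 FPKM (0.19).

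**Figure D2:**
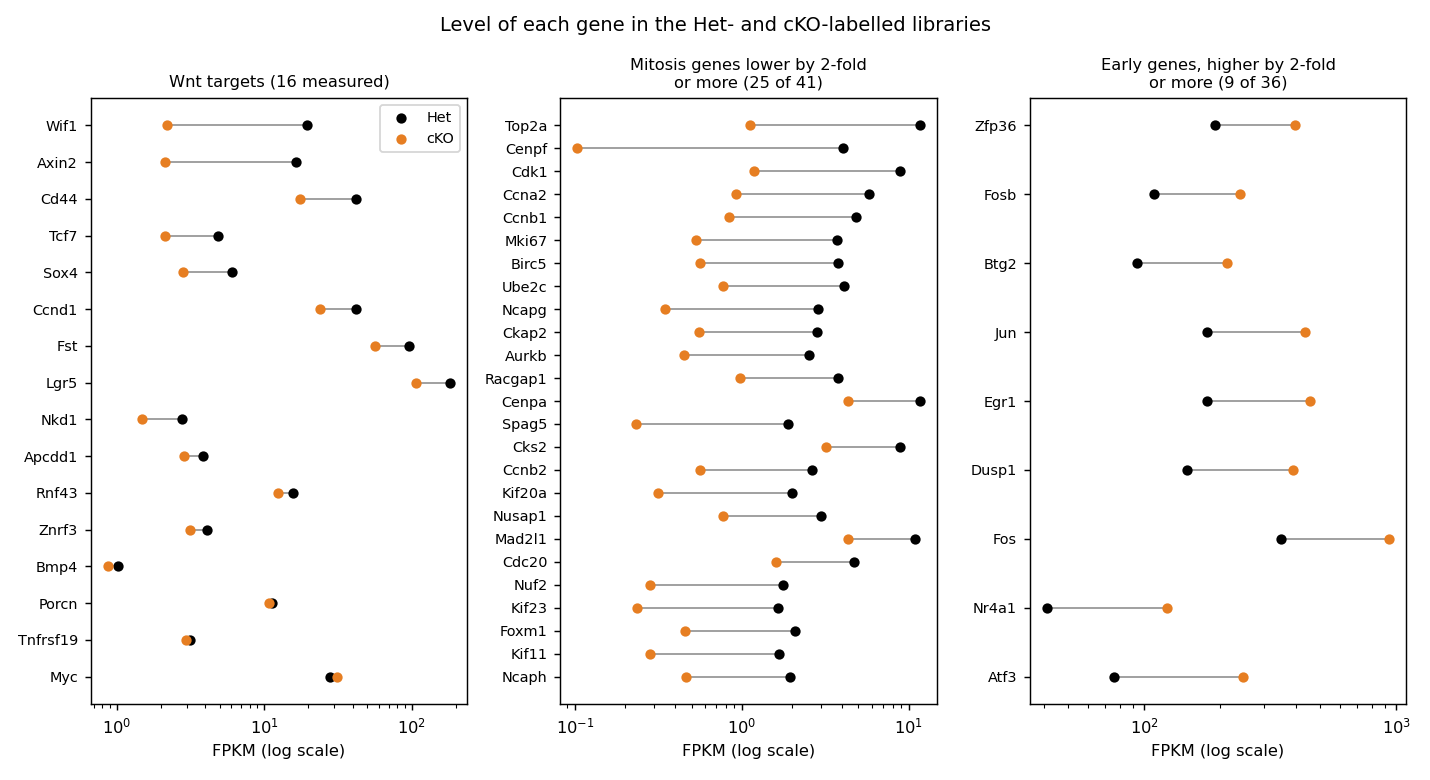
Level of single genes (FPKM, log scale) in the Het-labelled (black) and cKO-labelled (orange) library, 1 value per library, for the 16 measured Wnt targets, the 25 mitosis genes lower by 2-fold or more and the 9 immediate early genes higher by 2-fold or more. Of the Wnt targets only Myc lies higher in cKO; Axin2 and Wif1 have the widest gaps.

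Mitosis genes gave the largest count of any list among the lower genes. Of 50 on the list 41 were measured, 39 of them were lower in cKO and 25 were lower by 2-fold or more, where 1.22% of all genes were. Their median difference was -1.11, and -1.08 for the 26 members alone in their interval. At these low levels it depended on the pseudocount, with -0.40 at 5 and -1.97 at 0.1. The levels were low in both libraries: the median member stood at 0.687 FPKM in cKO and 2.98 in Het, and 34 of 41 lay under 10 FPKM in both. The entry into mitosis was represented by Cdk1, the mitotic kinase, at 1.19 FPKM in cKO and 8.84 in Het (-2.17), and by its cyclin partners Ccnb1 (0.840 and 4.86 FPKM, -1.67) and Ccna2 (0.926 and 5.80 FPKM, -1.82). The last shares its interval with Exosc9, which stood at 22 and 19.7 FPKM.

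Among the other members lower by 2-fold or more, Top2a, the topoisomerase that untangles sister chromatids, stood at 1.11 FPKM in cKO and 11.6 in Het (-2.58), and Cenpf, a kinetochore protein gene, at 0.103 and 4.04 FPKM (-2.19). Aurkb and Birc5, both of the chromosomal passenger complex, were at -1.28 and -1.61. The condensin subunit genes Smc2 (-0.54) and Smc4 (-0.17) and the checkpoint kinase gene Ttk (-0.41) lay within 2-fold. Mki67, which encodes the proliferation antigen Ki-67, stood at 0.534 and 3.73 FPKM (-1.63), and Foxm1, a transcription factor of mitotic genes, at 0.457 and 2.08 FPKM (-1.08). The 2 members that were not lower were Pttg1, the securin gene, at 50.7 FPKM in cKO and 46.0 in Het, and Bub3, a checkpoint gene, at 24.5 and 22.1. Both were among the few members above 10 FPKM.

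Genes of DNA replication lay closer to equal. Of 50 measured, 41 were lower in cKO, against 38.3% of all genes, and the median was -0.22. By 2-fold, 2 passed downward and 1 upward, where 1.22% and 0.848% of all genes did. Timeless, a replication fork protein gene, stood at 0.598 FPKM in cKO and 3.18 in Het (-1.39), and Uhrf1, which guides maintenance methylation of DNA, at 2.20 and 6.12 (-1.15). Orc1, an origin recognition subunit gene, went the other way at 2.49 and 0.380 FPKM (1.34). Of the MCM helicase genes, Mcm5 was at -0.93, Mcm2 at -0.67 and Mcm3 at -0.65, whereas Mcm4 was at -0.18. Pcna, the sliding clamp gene and the highest of the list, stood at 79.1 and 71.8 FPKM (0.14). Of 22 measured G1 cyclins, CDKs and CDK inhibitors none passed 2-fold. The inhibitor genes Cdkn1c (9.88 FPKM in cKO and 4.65 in Het, 0.95) and Cdkn1a (31.1 and 18.1 FPKM, 0.75) were at the upper end, and Ccnd1 was at the lower end.

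The start regions of Cdk1, Top2a and Ccnb1 are shown because these genes have some of the largest differences of their group, and the windows of Cdk1 and Top2a hold both of the sequence words for which promoters of mitotic genes are known, that of Ccnb1 1 of them. Each sequence is the 250 bases before the transcription start in RefSeq's GRCm38.p6 (the deposited tables use mm9), read 5′ to 3′ on the gene's strand. Capitals mark TTTGAA, the core of the cell cycle homology region, and CCAAT, the box bound by NF-Y, each on either strand (TTCAAA and ATTGG on the other).
Cdk1 (chr10:69352913-69353162, minus strand): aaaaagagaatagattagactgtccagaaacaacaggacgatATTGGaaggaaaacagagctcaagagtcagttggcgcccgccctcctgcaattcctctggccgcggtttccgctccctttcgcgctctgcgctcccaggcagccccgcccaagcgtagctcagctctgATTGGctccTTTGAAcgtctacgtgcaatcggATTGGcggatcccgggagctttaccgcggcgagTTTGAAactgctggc
Top2a (chr11:99024190-99024439, minus strand): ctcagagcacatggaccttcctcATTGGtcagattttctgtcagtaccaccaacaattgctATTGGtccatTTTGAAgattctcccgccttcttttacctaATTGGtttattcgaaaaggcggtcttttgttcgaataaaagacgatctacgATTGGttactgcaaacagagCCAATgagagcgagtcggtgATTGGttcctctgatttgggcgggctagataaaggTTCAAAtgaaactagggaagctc
Ccnb1 (chr13:100786487-100786736, minus strand): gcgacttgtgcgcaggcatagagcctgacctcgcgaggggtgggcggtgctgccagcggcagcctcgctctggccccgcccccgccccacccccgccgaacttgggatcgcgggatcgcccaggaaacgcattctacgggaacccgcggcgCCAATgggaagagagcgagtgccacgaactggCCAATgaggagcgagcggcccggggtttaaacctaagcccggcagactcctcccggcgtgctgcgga
The Cdk1 window held 2 TTTGAA and 3 CCAAT words, that of Top2a 2 and 6, and that of Ccnb1 0 and 2. Over the list, TTTGAA lay in the window of 16 of 35 mitosis genes with a RefSeq promoter (45.7%), beside 12.3% of the 8115 compared genes with a promoter and 18.3% of all 27025 genes in the promoter table. CCAAT lay in 27 of 35 (77.1%), beside 40.6% and 37.5%. Of the 25 mitosis genes lower by 2-fold or more, 21 had a promoter, of which 9 held TTTGAA and 16 CCAAT. A match is a description of the letters and not evidence of binding. The TCF/LEF word CTTTGAT lay in the window of 1 of 9 Wnt targets with a promoter (Tnfrsf19), beside 2.67% of the compared genes.

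Immediate early genes, which cells transcribe within minutes of a stimulus, stood on the other side. Of 40 on the list 36 were measured, 34 were higher in cKO, where 61.7% of all genes were, and 9 were higher by 2-fold or more, where 0.848% were. The median difference was 0.70, and the median member stood at 43.5 FPKM in cKO and 29.4 in Het. AP-1 genes among them were Fos (938 and 348 FPKM, 1.43), Fosb (240 and 110 FPKM, 1.13), Jun (437 and 178 FPKM, 1.29) and Atf3 (246 and 75.8 FPKM, 1.69). Egr1, a zinc finger factor, stood at 455 and 178 FPKM (1.35), and Nr4a1, an orphan nuclear receptor gene, at 123 and 41.1 FPKM (1.56). The other 3 past 2-fold were the MAP kinase phosphatase gene Dusp1 (388 and 148 FPKM, 1.38), the mRNA decay factor gene Zfp36 (396 and 192 FPKM, 1.04) and the antiproliferative gene Btg2 (214 and 93.3 FPKM, 1.19). The phosphatase genes Dusp6 (0.67) and Dusp5 (0.51) and the inhibitor genes Nfkbia (0.52) and Socs3 (0.25) lay within 2-fold.

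The list was not uniform. Gadd45g, a stress-response gene, stood at 5.03 FPKM in cKO and 9.44 in Het (-0.79), and Fosl2, another AP-1 gene, at 21.3 and 24.4 FPKM (-0.18). Egr3 (0.18) and Sik1 (0.18) lay near the median of all genes. Of 28 measured heat shock and chaperone genes 23 were higher in cKO, against 61.7% of all genes, but none by 2-fold. Their median was 0.19. Over all genes it was 0.17 for those that reached 100 FPKM, 0.093 between 30 and 100 FPKM and 0.053 between 10 and 30. Most of the 28 lay under 100 FPKM. Cryab, a small heat shock protein gene, was the highest of them at 86.1 and 52.1 FPKM (0.71). Of 23 measured p53 targets 2 passed 2-fold upward, Btg2 and the kinase gene Plk2 (7.53 and 2.44 FPKM, 1.31), with a median of 0.089.

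The start region of Atf3, the early gene with the largest difference, held 1 match of the cAMP response element TGACGTNA, shown in capitals in the same kind of window.
Atf3 (chr1:191183334-191183583, minus strand): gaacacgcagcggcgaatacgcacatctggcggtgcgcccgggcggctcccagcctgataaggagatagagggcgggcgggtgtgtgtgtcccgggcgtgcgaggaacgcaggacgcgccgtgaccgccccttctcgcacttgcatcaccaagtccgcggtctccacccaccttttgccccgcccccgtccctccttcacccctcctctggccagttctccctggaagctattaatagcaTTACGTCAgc
The match begins 10 bases before the start. This word lay in the window of 6 of 31 early genes with a promoter (19.4%), beside 4.97% of the compared genes and 2.92% of all genes, and in 0 of 35 mitosis genes.

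**Figure D3:**
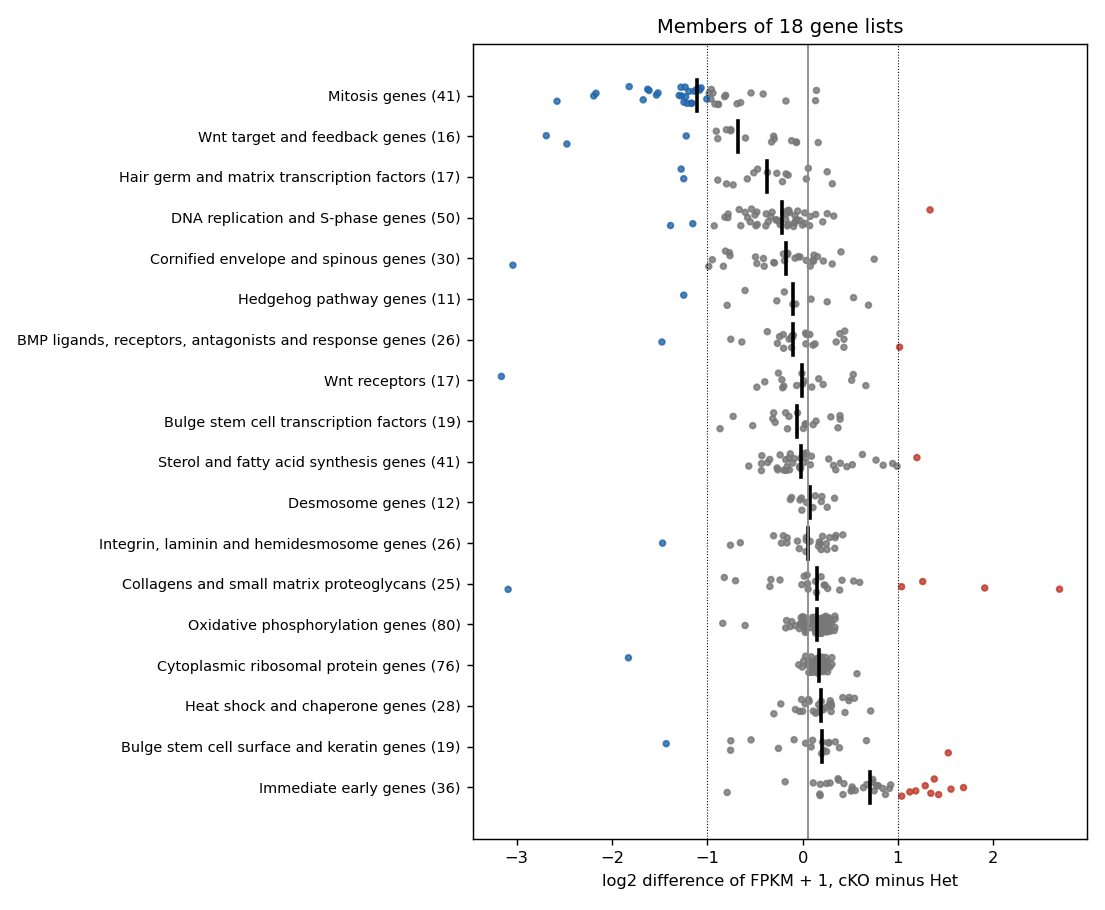
Difference of each measured member (log2 of FPKM + 1, cKO minus Het; 1 point per gene, number measured in parentheses) for 18 gene lists, with the list median as a black bar, the median of all genes as a grey line and 2-fold as dotted lines. Of the 18 lists drawn, mitosis genes have the lowest median (-1.11) and immediate early genes the highest (0.70); the fibroblast list, with 4 measured members and a median of 0.73, is not drawn.

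Genes on the bulge stem cell lists mostly lay within 2-fold, with single exceptions. None of 19 measured genes on the bulge transcription factor list passed 2-fold, and their differences lay between -0.87 and 0.39. Sox9 stood at 74.9 FPKM in cKO and 73.3 in Het, Lhx2 at 285 and 220 FPKM (0.37), Nfatc1, a factor known for keeping bulge cells at rest, at 42.8 and 62.0 FPKM (-0.52), and Gata3 at 25.9 and 48.1 FPKM (-0.87). Of 19 measured bulge surface and keratin genes, 1 passed 2-fold upward, Angptl7 (1.53), and 1 downward, Krt24. On that list Il31ra (-0.76), Lgr5 (-0.75) and Krt14 (0.67) lay within 2-fold. Among keratins, Krt24, a bulge keratin, stood at 102 FPKM in cKO and 278 in Het (-1.43) and Krt17 at 152 and 407 FPKM (-1.41). Krt6a (415 and 168 FPKM, 1.29) and Krt6b (44.7 and 17.4 FPKM, 1.32), keratins of the companion layer and inner bulge, went the other way. Krt75, also a companion layer keratin, was near equal at 8.94 and 9.28 FPKM.

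Of 17 measured transcription factor genes of the hair germ and matrix, 13 were lower in cKO, against 38.3% of all genes, with a median of -0.37. By 2-fold or more 2 were lower, where 1.22% of all genes were. Gli1, Sox4 and Sox21 are also on the hedgehog, Wnt target and bulge factor lists, so these lists are not separate readings. Foxi3 was at 0.0201 FPKM in cKO and 1.47 in Het (-1.27). Gli1, the transcriptional readout of hedgehog signalling, stood at 11.8 and 29.4 FPKM (-1.25), Msx2 at 3.08 and 6.09 (-0.80) and Sox21 at 4.92 and 8.82 (-0.73). In the hedgehog pathway the other targets were lower than in Het within 2-fold, with the receptor gene Ptch1 at 16.6 and 29.4 FPKM (-0.79) and the decoy Hhip at 1.57 and 2.91 (-0.60), and the coreceptor gene Cdon stood at 54.2 and 33.2 FPKM (0.69). Smo, the signal transducer, was near equal at 32.8 and 35.2 FPKM.

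Other signalling lists had medians near that of all genes, and single members stood out. In the TGF-β list Tgfb3 stood at 1.14 FPKM in cKO and 11.4 in Het (-2.53), while none of the other 17 measured members passed 2-fold. In the BMP list Gdf10, a BMP-like ligand gene, stood at 5.56 and 17.3 FPKM (-1.48) and Fstl1, an antagonist gene, at 39.0 and 18.7 FPKM (1.02). In the Notch list Dlk1, which encodes a Delta-like protein without the usual Notch-binding domain, had the highest difference of all genes that reached 5 FPKM, 21.6 against 1.28 FPKM (3.31), while the Notch target Hes1 stood at 9.62 and 17.3 FPKM (-0.79). None of 15 FGF genes and none of 14 EGF family genes passed 2-fold.

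IGF-binding protein genes, whose products bind insulin-like growth factors outside the cell, differed in both directions. Igfbp4 stood at 15.4 FPKM in cKO and 66.9 in Het (-2.05) and Igfbp5 at 17.9 and 39.0 (-1.09). Igfbp6 stood at 69.9 and 28.2 FPKM (1.28), Igfbp7 at 158 and 80.3 (0.96) and Igfbp3 at 156 and 99.3 (0.65). The receptor genes Igf1r (-0.58) and Insr (-0.16) lay within 2-fold. The median of the 13 measured members was 0.071 and turned to -0.32 for the 6 alone in their interval.

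Matrix and secreted genes also went both ways. Of 25 measured collagens and small matrix proteoglycans 4 passed 2-fold upward and 1 downward. Bgn, the proteoglycan biglycan, stood at 4.70 FPKM in cKO and 47.5 in Het (-3.09). Clec3b, the gene of tetranectin (29.2 and 3.66 FPKM, 2.70), the procollagen protease enhancer gene Pcolce2 (55.5 and 14 FPKM, 1.91), Col1a1 (10.3 and 3.72 FPKM, 1.26) and Col16a1 (43.7 and 20.7 FPKM, 1.04) were higher. Col1a1 is also a fibroblast marker, and the summed level of the fibroblast list was 50.4 FPKM in cKO against 26.5 in Het, with Crabp1 (25.5 and 8.77 FPKM), Col1a1 and Col1a2 (12.5 and 10.8) as its main members. Its part in these differences was not tested. Among matricellular genes, Cyr61, a YAP target, stood at 618 and 210 FPKM (1.55), Angptl7 at 259 and 89.2 (1.53) and Thbs1, thrombospondin 1, at 244 and 114 (1.10). Fbln1 (22 and 59.8 FPKM, -1.40) and Angptl4 (0.799 and 4.44 FPKM, -1.60) were lower. Postn, the most abundant of them, was near equal at 2666 and 2836 FPKM. Of 26 measured integrin, laminin and hemidesmosome genes 1 passed 2-fold, Itgb6 (4.20 and 13.4 FPKM, -1.47).

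The remaining extremes included genes outside any of these groups. Slc38a4, an imprinted amino acid transporter gene, stood at 0.345 FPKM in cKO and 11.5 in Het (-3.22), while none of the other 20 measured amino acid transporters passed 2-fold. Sprr1b, a cornified envelope gene, stood at 0.0362 and 7.52 FPKM (-3.04); the other 29 measured genes of the cornified and spinous layers lay within 2-fold, with Krt10 at 480 and 430 FPKM and Krt1 at 107 and 91.6. S100a4, a calcium-binding protein gene, stood at 5913 and 2139 FPKM (1.47), the highest level of any gene past 2-fold. Ppp1r3c, a glycogen-targeting phosphatase subunit gene, stood at 48.4 and 11.8 FPKM (1.95), Hpgd, which degrades prostaglandins, at 101 and 46.5 (1.10), Usp18, an interferon-induced protease gene, at 22.2 and 6.82 (1.57), and Mycn at 0.542 and 3.14 (-1.42). The synuclein gene Sncg stood at 219 and 63.8 FPKM (1.77), Mfge8 at 121 and 40.4 (1.56), the serpin genes Serpina9 at 31.3 and 9.35 (1.64) and Serpinb11 at 9.98 and 53.7 (-2.32) and the small GTPase gene Diras2 at 1.88 and 14.6 (-2.44). The others of the 15 at either end were Scrg1 (51.2 and 11.6 FPKM, 2.05), Lrguk (7.48 and 1.08, 2.03), Adamtsl3 (6.67 and 1.03, 1.92), Sphkap (11.3 and 2.36, 1.87) and Rapgef3 (34.9 and 10.8, 1.61) on the higher side and Fam40b (0.620 and 9.44, -2.69) and Fyb (0.756 and 6.88, -2.17) on the lower side.

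Some of these extremes lie where genes overlap, and reads of neighbours can enter their values. Whether they did so here was not tested. Braf, a kinase of the MAP kinase cascade, had the lowest difference of all genes that reached 5 FPKM, with 10.2 FPKM in cKO and 126 in Het (-3.51). The table gives its interval (mm9 chr6:39523871-39675462) to 4 genes, of which Ndufb2 stood at 107 and 91.4 FPKM and Adck2 at 35.1 and 36.3. The other 20 RAS, RAF and MAP kinase genes lay between -0.14 and 0.34. Synj1 (51.3 and 9.21 FPKM, 2.36) shares its interval with Gcfc1 (141 and 65.0 FPKM) and with the clone-named AC134560.1 at 419 and 65.4 FPKM. Rpl35 (67.0 and 240 FPKM, -1.83), beside Wdr38 at 0.567 and 0.420 FPKM in its interval, was the 1 ribosomal protein gene past 2-fold, and the other 75 measured lay between -0.04 and 0.57.

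The lists not yet described had medians between -0.14 and 0.22 and at most 2 members past 2-fold. Of 11 measured retinoic acid genes, Crabp1, a binding protein gene and fibroblast list member, was higher (1.44) and Lrat, which makes retinyl esters, was lower at 0.0607 FPKM in cKO and 1.95 in Het (-1.48). Of 31 polycomb and DNA methylation genes, Cbx8 (35.2 and 81.7 FPKM, -1.19) and Uhrf1 were lower. Of 12 genes of the Myc network, Mycn and Mxd3 (0.234 and 1.86 FPKM, -1.22) were lower. Of 41 sterol and fatty acid synthesis genes and of 12 sebaceous gland genes, the desaturase gene Scd3 (2.33 and 0.451 FPKM, 1.20) was the 1 past 2-fold. Of 19 imprinted genes, Dlk1 and Slc38a4 passed, and of 18 YAP and TEAD genes, Cyr61. The lists of 29 glycolysis, 17 lipoxygenase and prostaglandin, 10 S100 and 11 interferon genes had 1 member each past 2-fold, Ppp1r3c, Hpgd, S100a4 and Usp18. None of 18 clock, 19 antigen presentation, 24 Hox and 9 measured histone genes passed.

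Housekeeping families of abundant genes sat slightly above zero. Of 76 measured cytoplasmic ribosomal protein genes 73 were higher in cKO, with a median of 0.17. Of 80 oxidative phosphorylation genes 68 were higher, with a median of 0.15. Over all genes 61.7% were higher, and among genes that reached 100 FPKM the median was 0.17. The mitochondrial transfer RNA mt-Ts1, which was left out of the comparison, made up 20.6% of the summed FPKM in cKO and 26.3% in Het. Its part in these medians was not tested.

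The second RNA pair of the series shares no library with the first. It came from C57BL6 males of day 24 carrying Axin2LacZ/+, a reporter in the Axin2 gene, whose bulge cells were sorted into LacZ-positive and LacZ-negative cells as follicles went from telogen to anagen, again with 1 library each. The tables were normalized separately, so only differences within a pair are set side by side, and sex, age and strain background differ between the pairs. Of the 10486 genes compared in both pairs, 314 (2.99%) passed 2-fold upward and 168 (1.6%) downward in LacZ-positive cells, around a median of -0.14. Over these genes the differences of the pairs had a Pearson correlation of -0.26 and a Spearman correlation of -0.17. These are given as a description across genes, which are not independent replicates.

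Of the genes lower in cKO by 2-fold or more, 126 were compared in the LacZ pair: there, 55 (43.7%) passed 2-fold upward in LacZ-positive cells and 0 downward. The 55 make up 17.5% of the LacZ-higher genes. The mitosis list, with a median of -1.11 in the first pair, had one of 1.90 in the LacZ pair. Without genes on a cell cycle list, 31 of 99 (31.3%) passed 2-fold upward and 0 downward, around a median of 0.44. These 31 still held division genes that are on no list, such as Pbk (-1.67 in the first pair and 2.26 in the LacZ pair) and Cdca3 (-1.65 and 2.03). Others were Slc38a4 (-3.22 and 1.72), Lgr6 (-3.16 and 1.51), Braf (-3.51 and 1.69) and Sprr1b (-3.04 and 1.77). Markers of other follicle compartments moved with the LacZ sort: the upper follicle list, which holds Lgr6, had a median of 1.51 with 7 of 12 members past 2-fold upward, and the cornified and spinous list, which holds Sprr1b, one of 0.96 with 15 of 30. In the first pair these medians were -0.02 and -0.17. The bulge marker Cd34 was at -1.21 in the LacZ pair, but the bulge surface and keratin list followed it only in part. That list had a median of -0.30 there, with 3 of 18 members past 2-fold downward and 0 upward. Krt15, at 5951 FPKM in LacZ-positive cells and a listed 0 in LacZ-negative cells, was not among the 18. The part of these compartments in the values of Lgr6 and Sprr1b was not tested.

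Not all lower genes took this direction. Bgn was at -3.09 in the first pair and -0.99 in the LacZ pair, Igfbp4 at -2.05 and -0.97, and Wif1 at -2.69 and -0.17, where its LacZ-positive and LacZ-negative levels were 6.24 and 7.15 FPKM. In the LacZ pair Axin2 was at 19 and 9.10 FPKM (0.98), below the 2-fold line on this scale. The Wnt target list as a whole had a median of 0.067 there, with 2 of 16 members past 2-fold upward.

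Of the genes higher in cKO by 2-fold or more, 75 were compared in the LacZ pair: 15 (20%) passed 2-fold downward in LacZ-positive cells and 2 (2.67%) upward. The 15 make up 8.93% of the LacZ-lower genes. They include Igfbp6 (1.28 in the first pair and -1.98 in the LacZ pair), Pcolce2 (1.91 and -1.87), S100a4 (1.47 and -1.64), Mfge8 (1.56 and -1.56) and Krt6a (1.29 and -1.50). The 2 higher genes were Fosb (1.13 and 1.05) and Hexdc (1.47 and 1.15). The other early genes past 2-fold lay on the same side within 2-fold, with Atf3 at 1.69 and 0.84 and Nr4a1 at 1.56 and 0.88, and the median of the early list was 0.25 in the LacZ pair. Dlk1 was low in both LacZ libraries, at 0.217 and 0.508 FPKM.

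**Figure D4:**
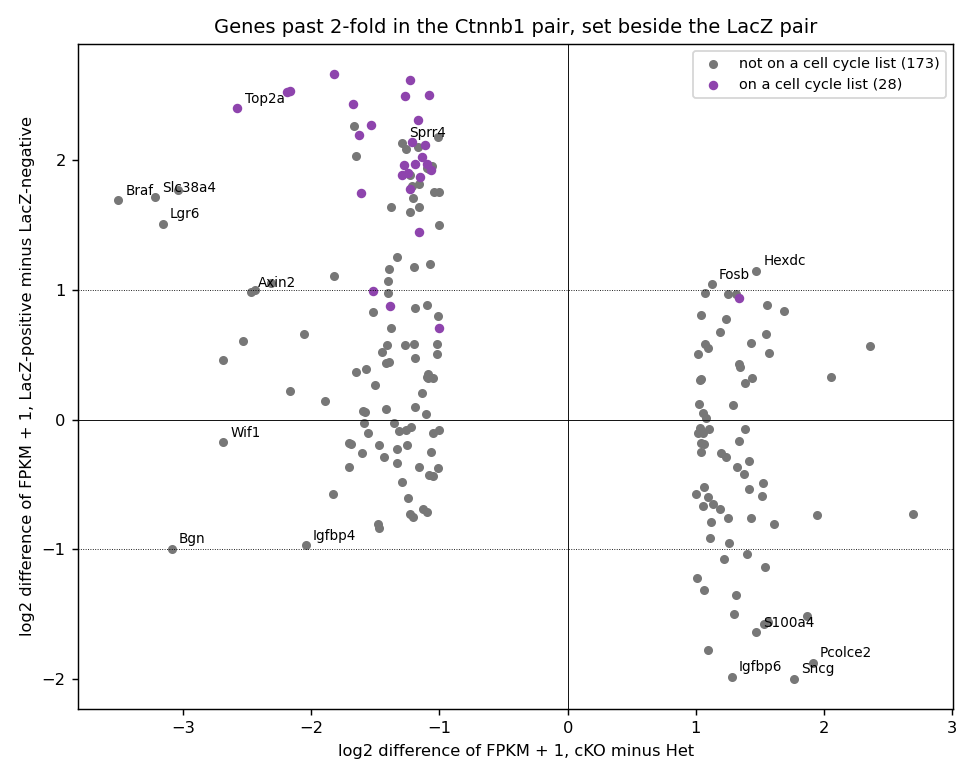
Differences (log2 of FPKM + 1) of 201 genes past 2-fold in the first pair, cKO minus Het (x axis), set beside those of the LacZ pair, LacZ-positive minus LacZ-negative (y axis), 1 point per gene, with cell cycle genes in purple. Of the 126 genes on the left 55 lie above the upper dotted line (2-fold) and 0 below the lower one, and of the 75 on the right 15 lie below the lower line.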

How the data were processed

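RNA of cells sorted from mouse back skin was purified with a column kit and sequenced as polyadenylated RNA on a HiSeq instrument, per the labels' protocols. The authors deposited 2 gene tables of FPKM, 1 per pair of libraries, and in the first a log2 fold change of cKO over Het, per the file headers. That deposited log2 column was used only as a check: it lay within 0.01 of the ratio of the FPKM columns in 18011 of 18107 rows above 0 in both libraries. Cufflinks 2.1.1, TopHat and TopHat2 2.0.4 are named in the submitters' processing notes, as are GRCm38 and mm9, with no roles. How strand and multi-mapped reads were treated is not stated there. FPKM depend on a library total and keep no counts, so no interval was computed.

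Groups were taken from the sample labels. Rows of a symbol were summed (32091 rows, 28792 symbols), 25 symbols turned into dates were restored through Ensembl identifiers, and log2 differences used a pseudocount of 1, which understates those of low genes. Of the 10736 genes, 6594 are alone in their interval and 4142 share it with other genes. No test was possible with 1 library per group. The 55 gene lists and families are described by counts past 2-fold and medians. Genes, lists and alternatives were chosen with earlier results of these data known, and 1 further list is not reported here. Named genes were drawn from Ctnnb1, Axin2, the 15 highest and 15 lowest differences at 5 FPKM or more in either library, and of each list the members past 2-fold and up to 3 of the highest mean level. Not every gene so chosen is named in the text. Further members named as examples were chosen after their values were seen. Promoters are RefSeq's (GRCm38.p6), matched by symbol, and a gene counts as holding a word when any of its starts does. Python 3.11.15, pandas 2.3.3 and numpy 2.4.6 were used. The counting of genes past 2-fold was checked on a copy of the Het values with set changes and no noise, which does not measure error. Samples of chromatin immunoprecipitation were not used here.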

Additional observations from a re-analysis of the deposited data

How the results depend on the processing

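Over 8 alternatives no named gene past 2-fold changed sign. Of the recomputed values, 417 of 438 list medians and 1659 of 1779 gene values moved by less than 0.209, the spread of differences over all genes (as an SD estimated from percentiles). With a pseudocount of 0.1, 158 genes passed 2-fold upward and 241 downward, and with 5, 41 and 36. With a minimum of 5 FPKM 68 were lower, and with small names and genes at 0 kept 234 were higher and 298 lower. Centring on a shift of 0.067 gave 74 higher and 155 lower. The mitosis median was -1.97 with a pseudocount of 0.1 and -0.40 with 5. The Wnt target median was -0.36 with a pseudocount of 5, -0.33 with no minimum, -0.46 with the highest row of each symbol and -0.31 for genes alone in their interval. For the leukocyte list it was 0.28 with a pseudocount of 5, 0.0065 with no minimum, and 0.87 both with a minimum of 5 and for genes alone; for the fibroblast list 0.48, 0.051, 1.26 and 0.19 in that order. The melanocyte median was -0.024 with no minimum and with a minimum of 5, the Merkel and nerve median -0.085 with no minimum, and that of companion keratins 0.15 with a minimum of 5. For genes alone in their interval the medians of the EGF (-0.21), IGF (-0.32) and Hox (-0.19) lists were below zero, where the full lists stood at 0.039, 0.071 and 0.093. The cause of these shifts was not tested. No paired analysis was possible because each group has 1 library. FPKM without counts leave the precision of low genes unknown.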

Other observations

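Genes past 2-fold on none of the lists, named here after their values were seen, included a cluster of related X-linked genes: Xlr3a (9.39 FPKM in cKO and 3.16 in Het, 1.32), Xlr4a (3.12 and 0.679 FPKM, 1.29), Xlr3b (12 and 4.50 FPKM, 1.24) and Xlr4b (2.15 and 0.411 FPKM, 1.16) were each higher in cKO. They are related copies between which reads could be split, so their values are uncertain and do not count as separate readings. The glucocorticoid-induced gene Tsc22d3 stood at 253 and 115 FPKM (1.13), the thioredoxin gene Txn1 at 370 and 170 (1.11), and Gfra2, a receptor of GDNF family ligands, at 71.0 and 24.2 (1.51). On the lower side were Ucp2, a mitochondrial carrier gene (23.5 and 78.4 FPKM, -1.69), Stmn1, a microtubule regulator (13.9 and 38.3 FPKM, -1.40), Tns4, a focal adhesion gene (68.3 and 154 FPKM, -1.16), and Has2, a hyaluronan synthase (2.71 and 7.94 FPKM, -1.27).

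The 4 genes left out because 1 library listed them at 0 were Defb14 (4.95 FPKM in Het), Prlh (1.19 in Het), Cyp7a1 (1.19 in cKO) and Ppapdc1a (2.45 in cKO). No fold is given for them.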
